A study of Arabidopsis thaliana with 18 samples.

Results

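AT1G03400 and AT1G04350 are Arabidopsis thaliana genes for dioxygenase-like enzymes whose RNA levels differed in opposite directions between wild-type plants and the triple mutant tga2-5-6. They were chosen by name and for that genotype difference, as the probe sets that the array annotation assigns to exactly one of these loci. Each gene had 1 probe set, 264843_at for AT1G03400 and 263668_at for AT1G04350, and together they are 2 of the 12643 genes with a usable probe set of their own. Both genes lie on chromosome 1, where 91 other protein-coding genes separate them in the TAIR10.1 annotation of RefSeq.

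RNA was measured on 18 single-colour Affymetrix arrays, 3 for each of 6 groups. The accession Col-0 and the mutant tga2-5-6 were each exposed for 4 h to 0.5% methanol in water (control), to 75 µM phytoprostane A1 (PPA1) or to 75 µM oxo-phytodienoic acid (OPDA). The labels call the replicates independent, and they give neither the organ, the age of the plants, the alleles in the mutant nor the solvent content of the compound treatments. Of 16 genes listed as green-tissue markers only RCA and LHCB4.1 had a usable probe set, with group means from 13149 to 20409, and of 11 root markers only the root-hair expansins EXPA7 and EXPA18 did, with group means from 60.5 to 542. The 3 mutated TGA genes had no named probe set, and the genotypes rest on the labels alone. The material is bulk tissue, in which fewer cells of a type and less RNA per cell cannot be told apart.

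Dioxygenases of this superfamily use iron and 2-oxoglutarate to hydroxylate or desaturate small molecules, and plants employ them in hormone, flavonoid and glucosinolate metabolism. ACC oxidase, which releases ethylene from its precursor, is a divergent member, and the ripening protein E8 of tomato belongs to a neighbouring subgroup. AT1G03400 and AT1G04350 are taken here, from general knowledge of the family, as E8-like genes, and their substrates are not described. TGA2, TGA5 and TGA6 are related basic leucine zipper factors that act in salicylic acid signalling and in the response to reactive oxylipins. OPDA, the jasmonic acid precursor, is made by enzymes, whereas phytoprostanes arise from the same fatty acid by oxidation without enzymes.

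AT1G03400 was low in the wild type and several times higher in the mutant. Levels are array intensities on a linear scale, which were scaled to a common mean on each array before deposit. In control plants the 3 Col-0 arrays read 85.3, 52.4 and 140 and the 3 tga2-5-6 arrays 276, 344 and 265. With PPA1 the Col-0 arrays read 83.4, 85.1 and 163 and the mutant arrays 368, 601 and 325. The groups did not overlap in either condition, and the highest mutant value, 601, stood apart from the others of its group. With OPDA the Col-0 arrays read 42.2, 36.8 and 59.5 and the mutant arrays 228, 369 and 231. Over all treatments the 9 Col-0 arrays ran from 36.8 to 163 (median 83.4) and the 9 mutant arrays from 228 to 601 (median 325), so that every mutant array lay above every wild-type array.

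The group means of AT1G03400 were 92.6 ± 44.3 (SD, n = 3) in Col-0 and 295 ± 42.8 in tga2-5-6 without compound, 111 ± 45.8 and 432 ± 149 with PPA1, and 46.2 ± 11.8 and 276 ± 80.3 with OPDA. On the log2 scale the mutant exceeded Col-0 by 1.78 ± 0.37 (SE) in control, by 1.99 ± 0.37 under PPA1 and by 2.57 ± 0.37 under OPDA, which are 3.42-fold, 3.96-fold and 5.94-fold. The gene was chosen for these differences, so they are a description and carry no test. Ordered by level, the groups ran from tga2-5-6 with PPA1 through tga2-5-6 control, tga2-5-6 with OPDA, Col-0 with PPA1 and Col-0 control to Col-0 with OPDA. Neighbours in that order overlapped, with the single break between the genotypes.

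AT1G04350 showed the opposite arrangement. In control plants the Col-0 arrays read 785, 509 and 784 and the mutant arrays 268, 244 and 182. With PPA1 the Col-0 arrays read 618, 506 and 743 and the mutant arrays 187, 315 and 270.3. In each of these conditions the lowest wild-type array stood above the highest mutant array. With OPDA, where both genotypes had their lowest values, the Col-0 arrays read 557, 374 and 493 and the mutant arrays 123, 175 and 134. The 9 Col-0 arrays spanned 374 to 785 (median 557) and the 9 mutant arrays 123 to 315 (median 187), again without overlap.

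For AT1G04350 the group means were 693 ± 159 (SD, n = 3) in Col-0 and 231 ± 44.2 in tga2-5-6 without compound, 622 ± 118 and 257 ± 65.0 with PPA1, and 475 ± 92.9 and 144 ± 27.4 with OPDA. The mutant lay below Col-0 by a log2 difference of -1.57 ± 0.26 (SE) in control, -1.29 ± 0.26 under PPA1 and -1.72 ± 0.26 under OPDA. Col-0 thus had 2.97-fold, 2.45-fold and 3.29-fold the level of the mutant. These values too chose the gene and are given without a test. In the order of levels, Col-0 control, Col-0 with PPA1 and Col-0 with OPDA came first and overlapped in turn. Then came tga2-5-6 with PPA1 and tga2-5-6 control, which overlapped each other, and last tga2-5-6 with OPDA, which overlapped neither of them.

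**Figure D1:**
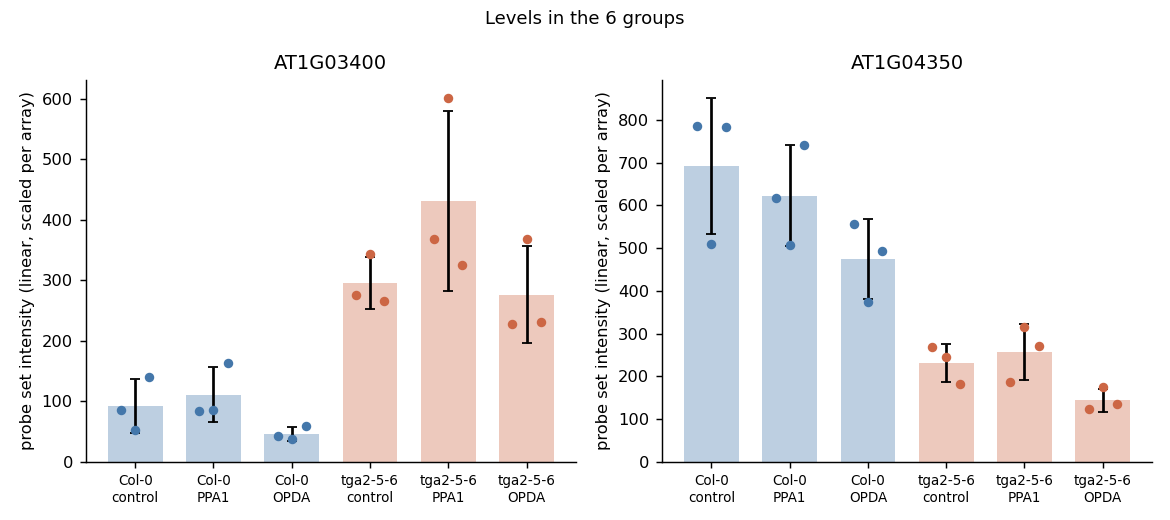
Intensity (linear scale, vertical axis from 0) of AT1G03400 on the left and AT1G04350 on the right in the 6 groups of genotype and treatment; points are the 3 arrays of a group, bars their mean and error lines the SD. AT1G03400 is at 228 to 601 on the mutant arrays and at 36.8 to 163 on the Col-0 arrays, and AT1G04350 at 123 to 315 and at 374 to 785.

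Among all 21869 probe sets compared, 0.402% had every mutant array above every Col-0 array and 0.215% the reverse. Within 1 treatment the genotypes' 3 arrays were free of overlap for 19.2% of the probe sets in control, 18.2% under PPA1 and 17.2% under OPDA. The 2 genes were picked for this contrast, and nothing is read from their place in these shares. Measures of RNA quality are given beside the genotype differences. The actin 3'/5' control ratio averaged 48.3 ± 16.8 (SD, n = 3) in untreated tga2-5-6 and 34.4 ± 11.7 in untreated Col-0. In the groups given a compound it averaged 28.1 to 30.4. The GAPDH 3'/5' ratio ran from 0.871 to 1.99 over all arrays. It averaged 1.55 ± 0.471 in untreated tga2-5-6 and 1.26 ± 0.107 in untreated Col-0. The part of these ratios in the differences was not tested.

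Whether the compounds moved either gene was tested within each genotype, a contrast that the choice of genes did not use. Neither gene passed in any comparison of treatments. The test was limma's moderated test in 1 model over all arrays, and passing meant a Benjamini-Hochberg adjusted p under 0.05 over all probe sets and a change of at least 2-fold. By this rule 2.5% of all probe sets passed for PPA1 against control in Col-0 and 2.71% in tga2-5-6. For OPDA against control the shares were 4.95% and 6.47%, and for PPA1 against OPDA 3.57% in each genotype. Of the 12 tests on the 2 genes 0 passed with limma, while 4 had an unadjusted p under 0.05, 2 for each gene. Over all probe sets 15.5% to 26% had such a p in these comparisons, so a count of 4 of 12 is read against that share. OPDA was the lower treatment in each of these 4. The 2 of each gene share 1 group of OPDA arrays and are not independent. That group is Col-0 for AT1G03400 and tga2-5-6 for AT1G04350.

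For AT1G03400 the largest difference lay between the compounds in Col-0, where PPA1 arrays exceeded OPDA arrays without overlap by 1.22 ± 0.37 on the log2 scale (95% interval 0.41 to 2.02, adjusted p = 0.0865 with limma). Such a lack of overlap was found for 21.3% of all probe sets in that comparison, and for 22.2% and 24.7% between PPA1 and control in Col-0 and tga2-5-6. In the mutant the same difference was 0.63 (-0.17 to 1.44, adjusted p = 0.453). Against control, OPDA gave -0.92 in Col-0 (-1.73 to -0.12, adjusted p = 0.164) and -0.12 in tga2-5-6 (-0.93 to 0.68, adjusted p = 0.880). PPA1 against control gave 0.30 in Col-0 (-0.51 to 1.10) and 0.51 in tga2-5-6 (-0.30 to 1.31), and the arrays overlapped in both. The interval reached past 2-fold in each of these comparisons except OPDA against control in tga2-5-6.

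AT1G04350 was measured more closely, with SDs of 19.0% to 25.3% of the group mean against 14.5% to 47.8% for AT1G03400. In tga2-5-6 the OPDA arrays lay below the control arrays by a log2 difference of -0.68 ± 0.26 (-1.23 to -0.13, adjusted p = 0.105 with limma) and below the PPA1 arrays, PPA1 minus OPDA being 0.82 ± 0.26 (0.27 to 1.37, adjusted p = 0.0868). Neither pair of groups overlapped, as was the case for 30.9% and 23.5% of all probe sets. In Col-0 the OPDA difference from control was -0.54 (-1.09 to 0.01, adjusted p = 0.246) and PPA1 minus OPDA was 0.39 (-0.16 to 0.94, adjusted p = 0.497), with overlapping arrays, where 27.9% of all probe sets did not overlap between OPDA and control. PPA1 against control was -0.14 (-0.69 to 0.41) in Col-0 and 0.14 (-0.41 to 0.69) in tga2-5-6, so that a change beyond 2-fold lay outside both intervals.

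**Figure D2:**
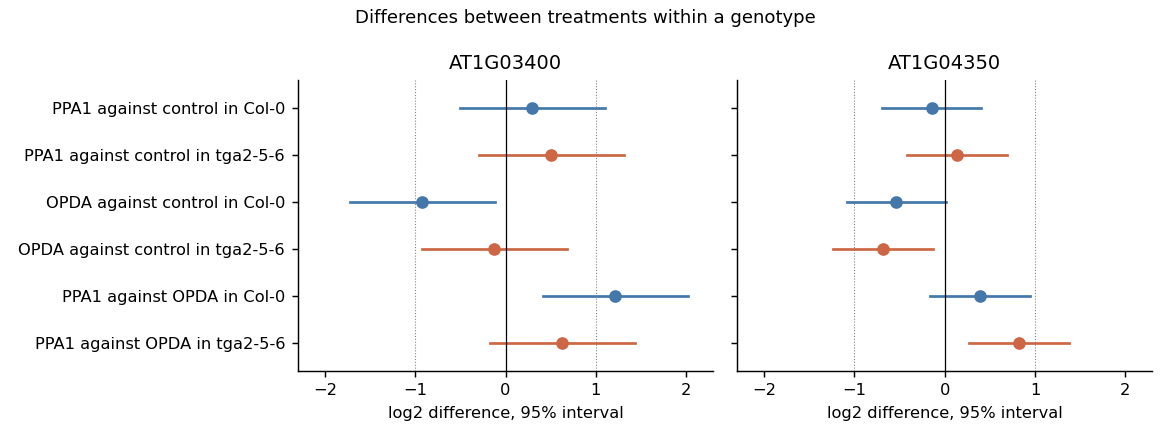
Log2 differences between treatments within Col-0 (blue) and tga2-5-6 (orange) for AT1G03400 on the left and AT1G04350 on the right; points are limma estimates, lines their 95% intervals, and dotted lines mark 2-fold. None of the 12 differences passed, and the estimates for PPA1 against OPDA run from 0.39 to 1.22.

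The response was then averaged over both genotypes, a comparison chosen after the data had been seen. PPA1 minus OPDA was 0.92 ± 0.26 for AT1G03400 (adjusted p = 0.0361 with limma) and 0.61 ± 0.18 for AT1G04350 (adjusted p = 0.0439). OPDA minus control was -0.61 ± 0.18 for AT1G04350 (adjusted p = 0.0292) and -0.52 ± 0.26 for AT1G03400 (adjusted p = 0.197). PPA1 minus control was 0.40 ± 0.26 and 0.00 ± 0.18. All of these averages were under 2-fold, so none passed, where 3.46% of all probe sets did for PPA1 against control, 7.05% for OPDA against control and 4.72% for PPA1 against OPDA.

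How far a compound moved the genotype difference was tested as the mutant's response minus the wild type's. Its groups are those in which the genotype difference chose the 2 genes, so this test is not free of that choice. For AT1G03400 this was 0.21 for PPA1 (95% interval -0.93 to 1.35, adjusted p = 0.954 with limma) and 0.80 for OPDA (-0.34 to 1.94, adjusted p = 0.832). For AT1G04350 it was 0.28 for PPA1 (-0.50 to 1.06, adjusted p = 0.910) and -0.15 for OPDA (-0.93 to 0.63, adjusted p = 0.962). Neither gene passed for either compound. Such differences rarely passed on these arrays, in 0.00915% of all probe sets for PPA1 and in 0.0% for OPDA, where 1419 had an unadjusted p under 0.05.

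The genes most closely related to the pair were set beside them. A list of 16 E8-like genes, the 2 members included, was drawn up from general knowledge of the family. Of the 14 others 13 had a usable probe set, and 2A6 (AT1G03410), which directly follows AT1G03400 on the chromosome, had a pair of them. None of the 13 passed for the difference between genotypes in limma, whether in control, under PPA1 or under OPDA. An unadjusted p under 0.05 was found for 1, 3 and 0 of them, beside 12.1%, 12.6% and 11.5% of all probe sets. Over all probe sets 0.535%, 1.57% and 0.787% passed. The median log2 difference of the 13 relatives was 0.00 in control, -0.20 under PPA1 and 0.01 under OPDA, beside 0.05, -0.02 and 0.00 over all probe sets.

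Among these relatives the genotype differences under PPA1 came nearest to passing. AT3G61400 averaged 51.9 ± 21.8 (SD, n = 3) in the mutant and 12.9 ± 12.4, below the filter value of 16, in Col-0, with an adjusted p of 0.0537 in limma. AT1G06620 averaged 263 ± 27.6 and 132 ± 50.6, a log2 difference of 1.06 ± 0.27 (adjusted p = 0.0649). With quantile normalization 1 relative passed in this comparison, as with a floor of 16 and without Col-0 PPA1 replicate 1, Col-0 PPA1 replicate 2 or tga2-5-6 PPA1 replicate 2, and with a trended and robust moderation 2 did.

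2A6 is both a gene directly beside AT1G03400 and a relative of it, and its probe sets disagreed. The brighter one averaged 517 ± 75.7 (SD, n = 3) in the mutant and 516 ± 58.2 in Col-0 without compound, a log2 difference of 0.00 ± 0.24. The dimmer one averaged 152 ± 42.1 and 60.7 ± 7.35, and there the 3 mutant arrays, at 104, 173 and 180, lay above the Col-0 arrays at 69.0, 55.1 and 57.9. Its log2 difference was 1.29 ± 0.55 in control (adjusted p = 0.377 with limma), 1.29 under PPA1 (adjusted p = 0.344) and 1.81 under OPDA (adjusted p = 0.193). None of these passed, and the dimmer probe set had the same direction as AT1G03400 in all 3 treatments. Under PPA1 its mutant arrays, from 58.8 upward, overlapped its Col-0 arrays, which reached 66.5. The brighter probe set gave -0.37 ± 0.24 under PPA1 and -0.06 ± 0.24 under OPDA.

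**Figure D3:**
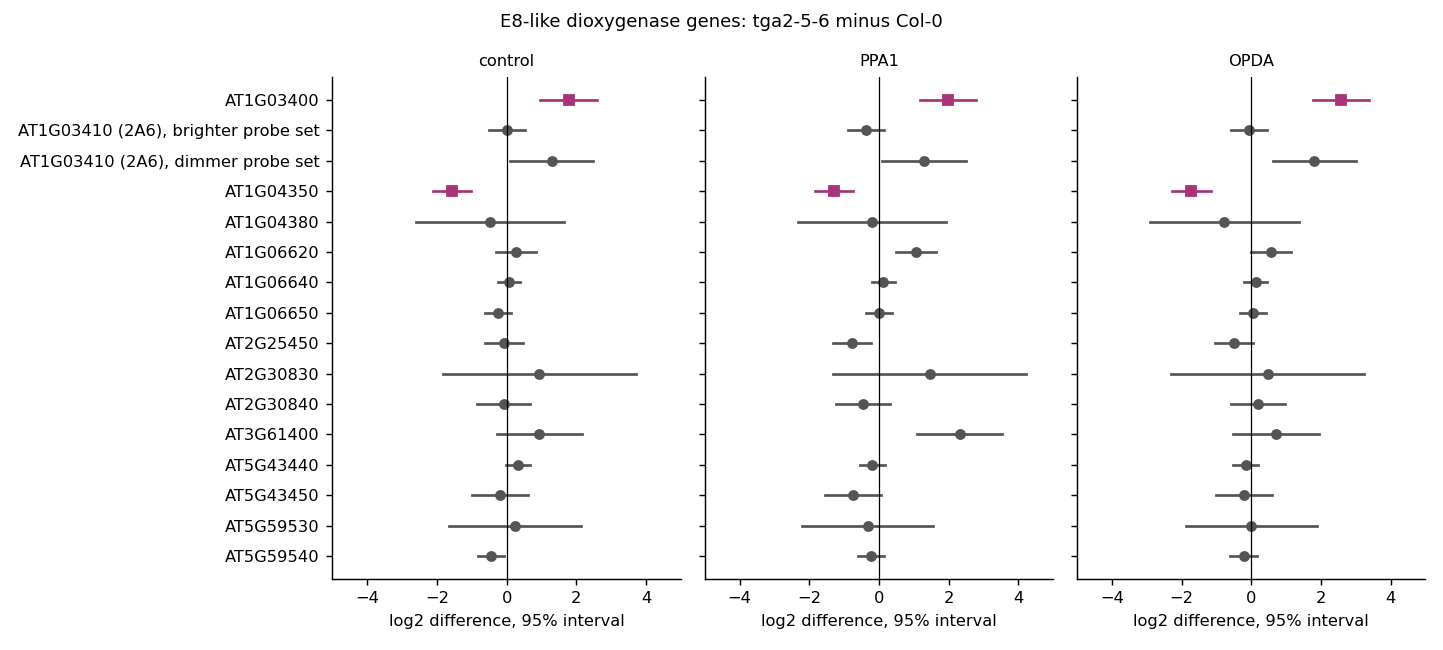
Log2 difference of tga2-5-6 minus Col-0 for the measured E8-like genes in control, under PPA1 and under OPDA; points are limma estimates with 95% intervals, and squares mark AT1G03400 and AT1G04350. The members stand at 1.78, 1.99 and 2.57 and at -1.57, -1.29 and -1.72, and none of the 13 relatives passed.

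Some relatives passed for the compounds, where the 2 members did not. OPDA raised 3 of the 13 in Col-0 and the same number in tga2-5-6, and lowered none. Over all probe sets 4.95% and 6.47% passed in these comparisons. In Col-0 AT1G06620 rose from 157 ± 36.5 to 856 ± 24.4 (log2 difference 2.47 ± 0.27, adjusted p = 0.000118 with limma) and in tga2-5-6 from 192 ± 64.9 to 1275 ± 173 (2.77 ± 0.27, adjusted p = 5.80e-05). AT1G06640 rose from 2328 ± 187 to 5123 ± 1021 in Col-0 (1.12 ± 0.15) and from 2466 ± 413 to 5543 ± 388 in tga2-5-6 (1.18 ± 0.15). AT3G61400 rose from 63.2 ± 16.9 to 269 ± 42.4 in Col-0 (2.11 ± 0.57, adjusted p = 0.0345) and from 127 ± 59.6 to 449 ± 138 in tga2-5-6 (1.89 ± 0.57, adjusted p = 0.0446). The Col-0 call for AT3G61400 was lost without any 1 of the 6 arrays, with adjusted p values up to 0.125, and the tga2-5-6 call was lost without any 1 of the arrays other than control replicate 2, with values up to 0.161. With only the arrays compared the tga2-5-6 call for AT3G61400 was lost as well (adjusted p = 0.0826 with limma). The call for AT1G06640 in Col-0 was lost without Col-0 OPDA replicate 1, when the change was under 2-fold (log2 difference 0.97).

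PPA1 raised 1 relative in Col-0 and lowered another, where 2.5% of all probe sets passed. In tga2-5-6 none of the 13 passed with limma, beside 2.71% of all probe sets. There 5 had an unadjusted p under 0.05, as did 19.8% of all probe sets. AT5G43450 rose in Col-0 from 467 ± 72.2 to 1496 ± 238 (1.68 ± 0.37, adjusted p = 0.0232), with 439 ± 219 and 945 ± 467 in tga2-5-6 (1.11 ± 0.37, adjusted p = 0.111). AT3G61400 fell in Col-0 from 63.2 ± 16.9 to below 16 (adjusted p = 0.0176). Leaving out 1 array ended the call for AT5G43450 in 5 of 6 cases, all but that of Col-0 PPA1 replicate 2, with adjusted p values up to 0.0996. For AT3G61400 it did so in 4 of 6, all but those of Col-0 control replicate 3 and Col-0 PPA1 replicate 2, with adjusted p values up to 0.0911. The AT3G61400 call was also lost with only the arrays compared (adjusted p = 0.177 with limma).

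Between the compounds, AT1G06620, AT1G06640 and AT3G61400 were lower with PPA1 than with OPDA in both genotypes. In Col-0 the log2 differences of the first 2 were -2.77 and -1.68, and in tga2-5-6 those of all 3 were -2.27, -1.68 and -3.18. AT3G61400 averaged below 16 with PPA1 in Col-0, and its log2 difference there was -3.80 with values under 16 raised to 16. AT5G43450 was higher with PPA1 in Col-0 (1.57 ± 0.37, adjusted p = 0.0246 with limma), a call lost when Col-0 PPA1 replicate 1 or replicate 3 was left out, or 1 of the OPDA arrays numbered 1 and 2, with adjusted p values up to 0.0950. The estimates for the 2 members in this comparison were all above 0, as given above. Those of the OPDA-raised relatives were below 0, but these genes were picked for their rise on the same OPDA arrays. Nothing is read from that sign. The difference between members and relatives was not tested. Values for the remaining E8-like genes, AT1G04380, AT1G06650, AT2G25450, AT2G30830, AT2G30840, AT5G43440, AT5G59530 and AT5G59540, did not pass in these comparisons. Of the 13 relatives 8 in Col-0 and 9 in tga2-5-6 had an unadjusted p under 0.05 in limma, beside 17.1% of all probe sets. The median log2 difference of the relatives was -0.29 in Col-0 and -0.59 in tga2-5-6, beside 0.08 and 0.05 over all probe sets. AT1G06650, AT5G43440, AT5G43450, AT5G59530 and AT5G59540 averaged higher with PPA1 than with OPDA in both genotypes, as did the members. The other relatives averaged lower with PPA1 in both genotypes, 2A6 by its brighter probe set.

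**Figure D4:**
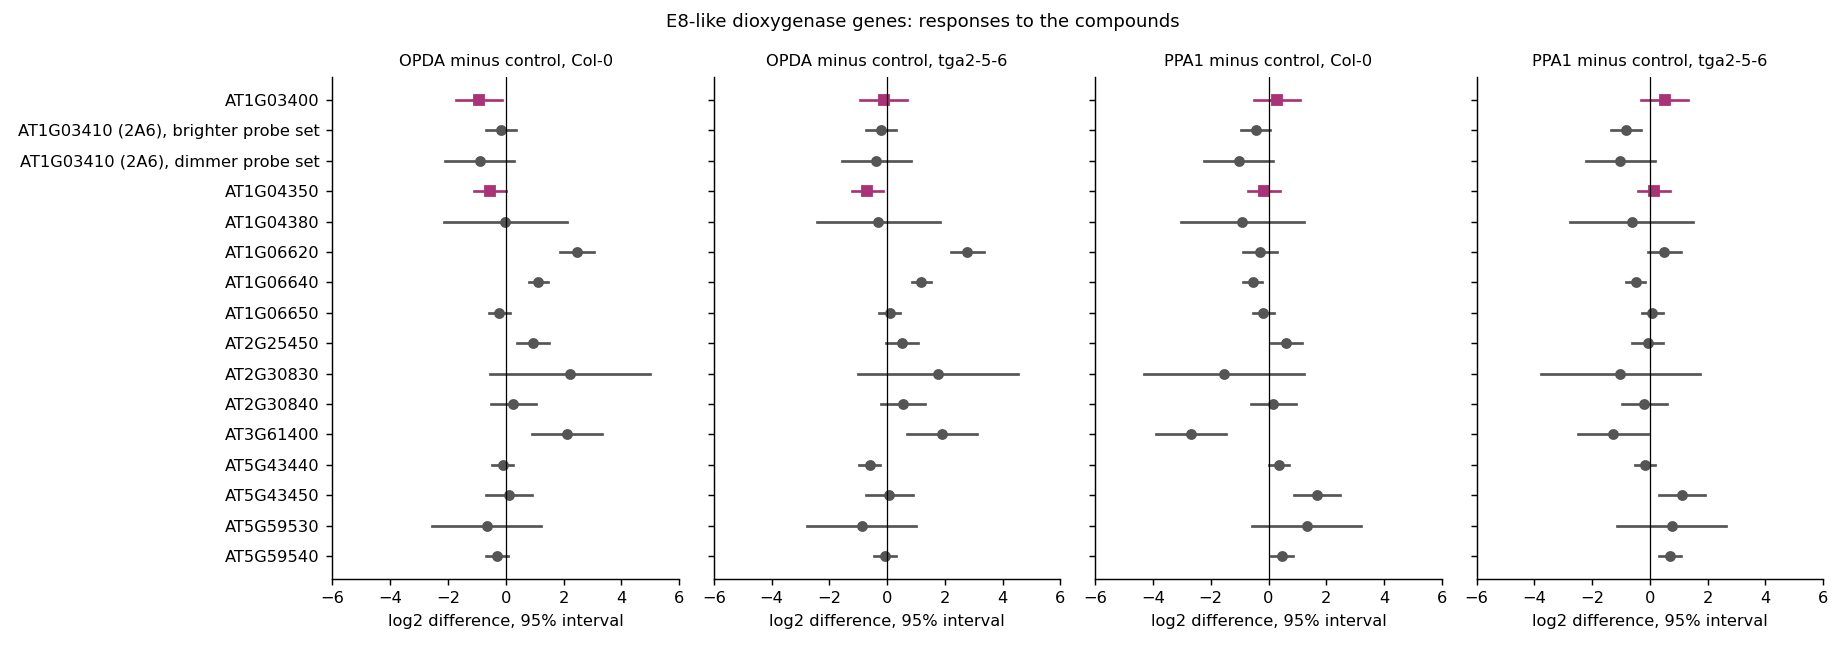
Log2 responses of the measured E8-like genes to OPDA and to PPA1, each against control, in Col-0 and tga2-5-6; points are limma estimates with 95% intervals, and squares mark AT1G03400 and AT1G04350. AT1G06620, AT1G06640 and AT3G61400, named because they passed with OPDA, lie to the right of 0 there in both genotypes. The OPDA estimates of the members are -0.92, -0.12, -0.54 and -0.68.

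More distant dioxygenases were followed through a second list of 27 genes, of which 10 were measured. With OPDA 5 of the 10 rose and 1 fell in Col-0, and 5 rose and 2 fell in tga2-5-6. Over all probe sets 4.95% and 6.47% passed in these comparisons. The list median was 1.61 and 1.48, beside -0.12 and -0.17 over all probe sets. The list was drawn up with earlier results of these data known, so its counts and medians are a description. AT5G05600, listed with the jasmonic acid oxidases JRG21 and AT2G38240, which rose as well, went from 357 ± 60.6 to 8035 ± 956 in Col-0 (4.50 ± 0.37, adjusted p = 3.16e-05 with limma). AT1G14120 rose from 674 ± 78.2 to 6806 ± 773 (3.34 ± 0.16). The genes that fell are named after their values were seen. AOP1 (AT4G03070) fell from 353 ± 51.3 to 120 ± 8.72 in Col-0 (-1.55 ± 0.32, adjusted p = 0.00803) and from 199.5 ± 19.3 to 93.4 ± 44.9 in tga2-5-6 (-1.22 ± 0.32, adjusted p = 0.0237). The latter call was lost without tga2-5-6 control replicate 1 or 2 or OPDA replicate 3 (-0.78 without the last), and with only the arrays compared (adjusted p = 0.172 with limma). The other call in tga2-5-6, AT3G12900, rests on means of 15.5 in control and 3.24 with OPDA, both below the filter value. It was lost in 5 of 7 other settings (-0.28, adjusted p = 0.605 with a floor of 16) and without any 1 array other than tga2-5-6 control replicate 1, where the adjusted p reached 0.157. For the genotype difference 1 of the 10 passed, under PPA1, where 1.57% of all probe sets did. It was AT1G14130, which inactivates auxin by oxidation. With PPA1 it stood at 205 ± 33.3 in tga2-5-6 and 947 ± 105 in Col-0 (-2.21 ± 0.21, adjusted p = 6.19e-05), and in control at 263 ± 78.2 and 261 ± 52.2.

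Of 16 ethylene synthesis genes a single one had a usable probe set, the ACC oxidase gene AT1G12010. It fell with OPDA in Col-0 from 787 ± 17.0 to 371 ± 13.7 (-1.09 ± 0.18, adjusted p = 0.00191 with limma), a change that was under 2-fold, at -0.97, with arrays centred on their medians. In tga2-5-6 it averaged 833 ± 231 in control and 557 ± 115 with OPDA (-0.57 ± 0.18, adjusted p = 0.0564). Its genotype difference did not pass under any treatment and was 0.05 ± 0.18 in control.

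The genes beside each member on the chromosome were examined next. Of the 20 nearest protein-coding genes, 5 on each side of each member, 10 had a usable probe set, 4 around AT1G03400 and 6 around AT1G04350. None of the 10 passed in limma for the genotype difference in control, under PPA1 or under OPDA, with 0, 2 and 2 at an unadjusted p under 0.05, beside the shares of all probe sets given above. Their median log2 differences were -0.03, -0.14 and -0.07. AT1G04340, which directly precedes AT1G04350, averaged 1090.2 in the mutant and 1120.2 in Col-0 without compound, a log2 difference of -0.05 ± 0.15 against -1.57 ± 0.26 for its neighbour. AT1G04380, the E8-like gene 3 positions beyond AT1G04350, was dim, at 42.7 ± 33.8 and 41.0 ± 22.3, and had a genotype difference of -0.48 ± 0.99. On the other member's side AT1G03370 and AT1G03440 gave 0.35 ± 0.29 and 0.44 ± 0.30 in control. AT1G03390 was below 16 in both genotypes there. Around AT1G04350 the others gave -0.36 ± 0.17 for AT1G04290, 0.14 ± 0.21 for AT1G04300, -0.73 ± 0.71 for AT1G04330 and -1.41 ± 0.66 for AT1G04390 (adjusted p = 0.418 with limma). In control all measured neighbours of AT1G04350 but AT1G04300 thus had its direction, and none passed. AT1G03370 gave 0.62 ± 0.29 under PPA1 (adjusted p = 0.385 with limma) and 0.77 ± 0.29 under OPDA (adjusted p = 0.303). These had the direction of AT1G03400 and did not pass.

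**Figure D5:**
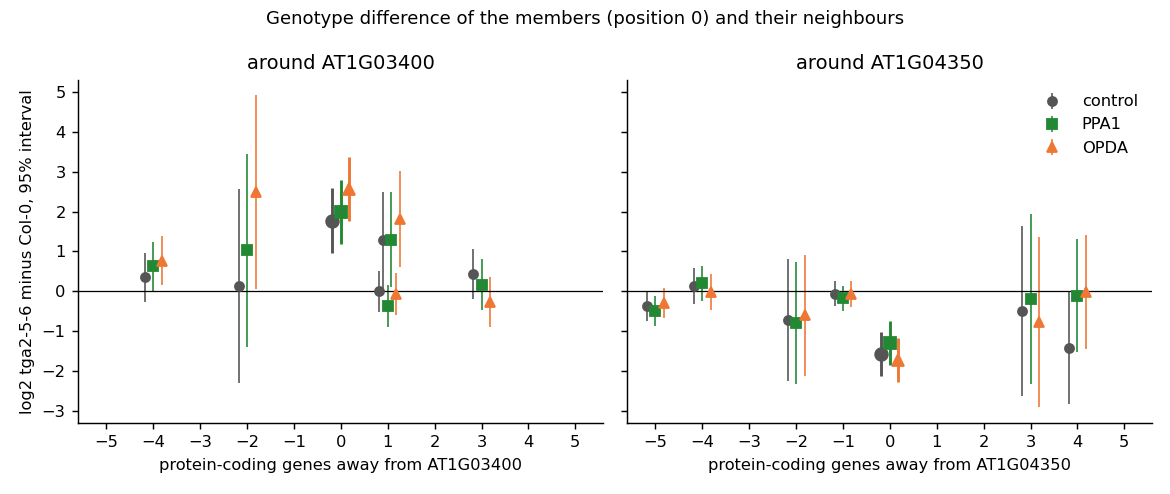
Log2 difference of tga2-5-6 minus Col-0 (vertical axis) for AT1G03400 on the left, AT1G04350 on the right (both at position 0, heavier symbols) and their measured neighbours, by number of protein-coding genes away; symbols are treatments and lines 95% intervals, and position 1 on the left holds both probe sets of 2A6. The members stand at 1.78 to 2.57 and at -1.29 to -1.72, and no neighbour passed.

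The genes with the pattern most like each member were sought among 8992 probe sets with 1 gene and a group mean of at least 64. Likeness was Pearson's correlation of log2 values over the 18 arrays, whose 2 genotypes of 9 arrays make up most of the pattern. Most like AT1G03400 were AT2G32160 (r = 0.938), the calmodulin-like gene AT2G41090 (0.913), AT5G25440 (0.903), AT2G40600 (0.902) and AT2G39210 (0.901). The first of these averaged 307 over the mutant arrays and 63.1 over the Col-0 arrays. With each genotype's mean removed the correlations were 0.710, 0.654, 0.710, 0.522 and 0.573. Most like AT1G04350 were AT5G61660 (0.931), AT3G15900 (0.899), AT1G18060 (0.894), AT1G73110 (0.889) and the glycosyltransferase gene UGT74D1 (0.882). AT5G61660 averaged 168 over the mutant arrays and 566 over the Col-0 arrays, and UGT74D1 483 and 1244. With genotype means removed these correlations were 0.630, 0.800, 0.711, 0.768 and 0.471. The ranking used the same arrays, so the correlations with means removed partly follow from it for both members.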

How the data were processed

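The members, lists and tests were chosen with earlier results of these data known. The authors deposited 1 intensity for each probe set and array, not logged, between 0.0678 and 41686. The submitters' processing notes name GCRMA, which gives log2 values, and how these linear intensities arose is not given in the sources used here. Trimmed by 2% at either end, each array averaged 500.05, so a scaling preceded deposit. Array medians were 159 to 185, with 14.4% to 18.0% of the values under 16.

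Values under 1 were raised to 1 before log2 was taken. From 22810 probe sets, 64 controls were dropped and those reaching 16 on 3 arrays or more were retained, 21869 in all. The array annotation, updated to TAIR10.1 loci, names 1 gene for 13513 probe sets, several for 503 and none for 8730. Counts used the brightest probe set of a gene. Group means were fitted over all arrays with limma 3.58.1 (R 4.3.3, 12 residual and 1.50 prior degrees of freedom, two-sided), checked on simulated data. Tables were made with pandas 2.3.3 and plots with matplotlib 3.10.9. Genes named are the members, the measured E8-like genes and neighbours, up to 4 called genes per other list and comparison, largest change first, and the 5 most like each member. JRG21 and AT2G38240 are named without values. P-values measure the spread between 3 arrays a group, which limits the precision. Alternatives were scaling, floor, filter, moderation, the arrays fitted, each array left out and a replicate block. No sequence was used here.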

Additional observations from a re-analysis of the deposited data

Results flagged for a closer look

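1 listed gene differed between genotypes in its response to a compound by the test of that difference itself. The response of AT1G14130 to PPA1 was lower in tga2-5-6 than in Col-0 by a log2 difference of -2.20 ± 0.29 (adjusted p = 0.0363 with limma). In Col-0 it rose from 261 ± 52.2 to 947 ± 105 (1.87 ± 0.21), and in tga2-5-6 it averaged 263 ± 78.2 in control and 205 ± 33.3 with PPA1. The call held in 4 of the 12 fits that left out 1 array, namely those without Col-0 control replicate 2, tga2-5-6 control replicate 1 or 2, or tga2-5-6 PPA1 replicate 2, and the adjusted p rose to 0.167 without Col-0 PPA1 replicate 2. With quantile normalization it was 0.0608, and with only the arrays compared it was 0.211, the highest of the settings run.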

How the results depend on the processing

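With 1 array left out the genotype differences ran from 1.42 to 2.77 for AT1G03400 and from -1.88 to -1.08 for AT1G04350, whose directions the choice of genes fixes. The 22 tested treatment results kept direction and call in 325 of 346 repeats. With trended and robust moderation AT1G03400 passed for PPA1 against OPDA in Col-0 (1.22, adjusted p = 0.0264 with limma). PPA1 against control for AT1G04350 over both genotypes turned to 0.068 with median centring and 0.037 with quantile normalization. The cause was not tested.

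With 1 array left out, PPA1 against control ran from -0.057 to 0.65 for AT1G03400 in Col-0, from -0.026 to 0.35 for AT1G04350 in tga2-5-6 and from -0.11 to 0.10 for AT1G04350 over both genotypes. PPA1 against OPDA ran from 0.66 to 1.04 for AT1G04350 in tga2-5-6, where it passed without tga2-5-6 PPA1 replicate 1 (1.04, adjusted p = 0.0461 with limma). Over both genotypes it ran from 0.76 to 1.04 for AT1G03400 and passed in 4 of 12 fits, without Col-0 PPA1 replicate 1, Col-0 OPDA replicate 3, tga2-5-6 PPA1 replicate 3 or tga2-5-6 OPDA replicate 2. The genotype difference of the response ran from -0.15 to 0.56 for AT1G03400 with PPA1 and from -0.31 to 0.060 for AT1G04350 with OPDA.

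The number of probe sets passing moved most where only the arrays compared were fitted. It was then 221 and 94 for PPA1 against control in Col-0 and tga2-5-6, 718 for OPDA against control in tga2-5-6, and 484 and 356 for PPA1 against OPDA. Between genotypes it was 6 in control, 89 under PPA1 and 11 under OPDA, in place of 117, 344 and 172, as fewer arrays estimate the spread. For the genotype difference of the response to PPA1, where 2 passed, the number was 0 in that fit and with quantile normalization, 26 with a floor of 16 and 31 with trended and robust moderation. For that to OPDA, where 0 passed, it was 5 with a floor of 16. With 1 array left out the numbers ran from 351 to 622 and from 361 to 630 for PPA1 against control in Col-0 and tga2-5-6, from 43 to 86 and from 113 to 145 between genotypes in control and under OPDA, and from 0 to 7 and from 0 to 3 for the response to PPA1 and OPDA.

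Same-numbered replicates did not deviate together, with correlations from -0.0539 to 0.0673 over 45 pairs, so no block was put in the main model. Whether they were grown or treated together cannot be told from these correlations. With the replicate number as a block no call of AT1G03400 or AT1G04350 changed, and 1 probe set in place of 2 passed for the genotype difference of the response to PPA1. Dim probe sets limit what can be seen, AT1G04380 and AT1G03390 among them.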
